A study of Mus musculus with 3 samples.

Results

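The replication-dependent histone genes were examined for peaks of the forkhead transcription factor Foxp3 in mouse bone marrow-derived macrophages (BMDMs). Members were protein-coding genes of the mm10 RefSeq table, on chromosomes 1 to 19 and X, whose symbol begins with H2ac, H2bc, H3c or H4c and a number, or is H1f1 to H1f6. This gave 63 of 21631 genes, 53 in the HIST1 cluster on chromosome 13 and 10 in the HIST2 cluster on chromosome 3. By class there were 6 linker histone H1 genes, 17 H2A genes, 16 H2B genes, 12 H3 genes and 12 H4 genes. The HIST3 and HIST4 genes carry other symbols in this table and are therefore not members.

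Replication-dependent histone genes supply the histones that package DNA as it is copied. They are short, mostly without introns, and their messages end in a stem-loop in place of a poly(A) tail. Transcription peaks in S phase and is driven by NPAT, a factor that gathers at the histone locus body. The genes lie in tight clusters, and many H2A and H2B genes stand head to head over a shared promoter.

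Both Foxp3 libraries were made from BMDMs grown in medium conditioned with M-CSF, fixed with formaldehyde and cut with the same Foxp3 antibody (clone FJK-16s). They differ by replicate number alone in the labels, which do not say whether the replicates were separate cultures or animals. Differences between the lists can thus be technical. The series title adds stimulation with brain-derived danger molecules, with no label saying which library received it, and an IgG library of the series was not analysed here. Replicate 1 held 33294105 fragments and 555534 peaks on the chromosomes used, and replicate 2 held 34898401 fragments and 94819 peaks. The file headers give a fragment size of 130 bp in replicate 1 and 180 bp in replicate 2. The median peak length was 167 and 236 bp. A peak list holds no expression values, so the cell type was not checked against its markers. With 1 group, 2 peak lists and no control list, no difference was tested, and shares at the members are set beside shares over other genes.

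The stretches just before the start of a few members are shown first, since peak positions are measured from these starts. They come from the RefSeq promoter table (GRCm38.p6), which held 58 of the 63 members. Each runs 5′ to 3′ on the strand of the gene and ends at the base before the transcription start. Capitals mark the searched words on either strand, which are CCAAT, the TATA word TATAAA, the octamer ATTTGCAT, the H1 promoter word AAACACA and the forkhead words, which were TGTTTAC, the variant TGTTTAT and the variant TGTTTGC. H1f4, H3c6 and H4c12 had the highest-ranked sites of their classes in HIST1, H4c4 had a site in replicate 1 alone and H1f1 had none. Their positions in that order are chr13:23622559-23622708 (minus strand), chr13:23562386-23562535 (minus), chr13:21750554-21750703 (minus), chr13:23581418-23581567 (plus) and chr13:23763518-23763667 (plus).
H1f4: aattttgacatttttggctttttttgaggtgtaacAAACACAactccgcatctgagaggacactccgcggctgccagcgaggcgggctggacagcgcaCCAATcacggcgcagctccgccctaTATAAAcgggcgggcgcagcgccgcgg
H3c6: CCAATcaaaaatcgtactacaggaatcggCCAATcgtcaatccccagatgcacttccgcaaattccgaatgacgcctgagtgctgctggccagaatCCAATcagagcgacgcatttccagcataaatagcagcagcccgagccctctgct
H4c12: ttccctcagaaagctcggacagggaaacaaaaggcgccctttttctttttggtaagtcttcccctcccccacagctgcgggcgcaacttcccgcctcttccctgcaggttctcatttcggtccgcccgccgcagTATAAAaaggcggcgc
H4c4: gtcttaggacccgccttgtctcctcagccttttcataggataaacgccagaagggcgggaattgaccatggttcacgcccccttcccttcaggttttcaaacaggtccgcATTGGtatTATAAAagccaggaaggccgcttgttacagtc
H1f1: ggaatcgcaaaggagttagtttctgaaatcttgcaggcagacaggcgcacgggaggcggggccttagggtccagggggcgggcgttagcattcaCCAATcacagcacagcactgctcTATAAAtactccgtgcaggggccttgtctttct
The next stretch is everything between the starts of H2ac12 and H2bc12, a divergent pair (chr13:22035644-22035820, strand of H2bc12).
H2ac12 to H2bc12: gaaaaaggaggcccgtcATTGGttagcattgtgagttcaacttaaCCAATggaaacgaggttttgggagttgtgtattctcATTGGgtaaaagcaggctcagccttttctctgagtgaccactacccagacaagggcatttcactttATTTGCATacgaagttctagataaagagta

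Over the full window of 300 bases (250 before to 50 after the start), CCAAT was found in 51 of 59 member promoters (86.4%), against 38.5% of 21045 promoters of protein-coding genes. It was in all promoters of H1, H2A, H2B and H3 genes and in 3 of 11 H4 promoters. TATAAA was in 34 of 59 (57.6%, against 12.7%). ATTTGCAT was in 7 of 15 H2B and 6 of 17 H2A promoters and in none of the other classes, against 1.68% of all promoters. AAACACA was in 5 of 6 H1 promoters, against 6.19%. A forkhead word was in 5 of 59 (8.47%), against 10.99% of all promoters. These 5 were H2bc14, H2ac22, H2ac11, H1f2 and H1f1, of which H1f1 carried no peak in either replicate. The matches describe letters in this window, and the words can share bases. The windows of a divergent pair overlap, so 1 match can count for both genes, as with the ATTTGCAT between H2ac12 and H2bc12.

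Peaks of both replicates lay at most members. A peak within 1 kb of a gene end, the definition of a site used here, was present in replicate 1 at 62 of 63 members (98.4%), where 86.1% of all protein-coding genes had one. Replicate 2 had a site at 55 members (87.3%), where 63.3% of all genes had one. All 55 also had a site in replicate 1, so 55 of 63 members (87.3%, 95% exact binomial interval 76.5 to 94.4%) had a site in both, against 62.2% of all genes. The interval covers counting error only and treats members as separate, although neighbours share peaks. Most members are short, with a median length of 492 bp, and among the 2441 protein-coding genes of at most 2000 bp the shares were 59.4% in replicate 1, 25.9% in replicate 2 and 24.7% in both. Without members and genes of olfactory, vomeronasal, taste and trace amine receptors, they were 80.8%, 46.0% and 44.7% of 1165 short genes. The excess over all genes depends on the window, since counting peaks over whole gene bodies gave 47 of 63 members (74.6%) and 75.1% of all genes.

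**Figure D1:**
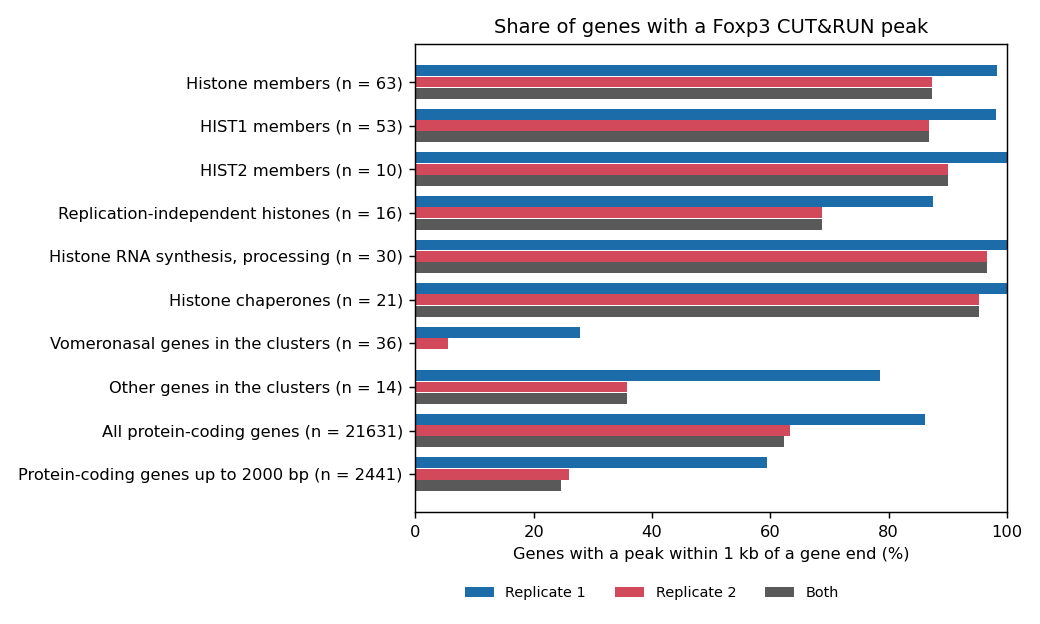
Percentage of genes with a Foxp3 CUT&RUN peak within 1 kb of a gene end, by gene list, in replicate 1, replicate 2 and both. The histone members stand at 98.4, 87.3 and 87.3%, all protein-coding genes at 86.1, 63.3 and 62.2%, and no vomeronasal gene inside the clusters had a site in both.

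By cluster, HIST1 had a site in both replicates at 46 of 53 members (86.8%, interval 74.7 to 94.5%) and HIST2 at 9 of 10 (90%, interval 55.5 to 99.7%), beside the 62.2% of all genes. HIST1 fell into 4 blocks where neighbouring members lay over 100 kb apart. The first block (chromosome 13, positions 21715711 to 21833475) had a site in both replicates at 16 of 17 members. The second (22035122 to 22043658) had one at 5 of 5, and the third (23531044 to 23764412) at 25 of 29. The fourth (23933725 to 23934913) holds only H2ac1 and H2bc1, the testis genes TH2A and TH2B, and had none.

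The windows of neighbouring members overlap, so 1 peak can serve several members. The sites of the 63 members came from 71 distinct peaks in replicate 1 and 52 in replicate 2. Of these peaks, 58 (81.7%) and 45 (86.5%) had their summit inside a member gene. In the third HIST1 block the windows covered 26.3% of the block and held 32 of its 67 replicate 1 peaks and 25 of its 31 replicate 2 peaks. In the first block they covered 28.8% and held 21 of 35 and 14 of 16. In HIST2 they covered 36.1% and held 11 of 13 and 8 of 8. Most replicate 2 peaks of these blocks thus lay by histone genes, and fewer of the replicate 1 peaks of the HIST1 blocks did.

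Where a member carried a peak of its own, it carried a single one, and the short genes left little room for more. The median member was 492 bp long, and the members' own peaks had median lengths of 343 and 327.5 bp in replicates 1 and 2. A peak was counted as a member's own when its summit lay inside the gene, at most 1 kb after a listed start or, for the 5 members without a listed start, within 1 kb of a gene end. Replicate 1 had such a peak at 59 members (93.7%) and replicate 2 at 46 (73.0%), each time exactly 1, and both had one at 45 (71.4%). These shares were near those of all protein-coding genes, most of them longer. A summit anywhere inside the gene was found at 90.4%, 71.9% and 71.2% of them. In those 45 genes the replicates' peaks overlapped in every case, and their summits lay 2 to 345 bp apart, with a median of 64 bp and 32 of 45 within 100 bp. Of the 58 members no longer than 2000 bp, 55, 42 and 42 had a summit inside in replicate 1, replicate 2 and both. The corresponding shares of the 2441 genes of that length were 49.3%, 20.2% and 18.6%. With members and these receptor genes set aside, they were 67.5%, 36.1% and 33.6% of 1165 genes.

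The deposited peak boundaries of the replicates overlapped widely at the members. Of the 55 members with a site in both, all 55 had peaks of the 2 lists that overlapped by at least 50% of both lengths within the window. Among all 13463 genes with a site in both, 9447 (70.2%) did, which is 43.7% of all protein-coding genes. Among short genes outside the members, 334 of 552 (60.5%) did. Any pair of peaks in the window counted, so neighbouring members can count through the same pair. H2bc18, for example, had no summit inside and counted through the peaks in H3c13. The difference from other genes was not tested.

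The distance of the own summits from the transcription start was then measured. That they lie after it follows from how own peaks were chosen and is no finding. In replicate 1, the 55 own summits with a known start lay 92 to 439 bp after it, with a median of 248 bp. In replicate 2, 42 summits lay 33 to 414 bp after it, with a median of 189.5 bp. The replicate 2 summit was nearer to the start in 29 of the 42 members that had both, and the replicate 1 summit in 13. The libraries differ in fragment size (130 and 180 bp), and its part in this shift was not tested. The peak itself reached over the start in 12 of 55 members in replicate 1 and 10 of 42 in replicate 2.

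By class, the replicate 1 medians were 254 bp in H1, 283 in H2A, 290 in H2B, 210 in H3 and 219 in H4 genes. In replicate 2 they were 152, 220, 266, 174 and 169 bp in the same order. The H2B summits lay farthest from the start in both replicates and the H3 and H4 summits nearer to it than those of H2A and H2B, with overlapping ranges in all classes.

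**Figure D2:**
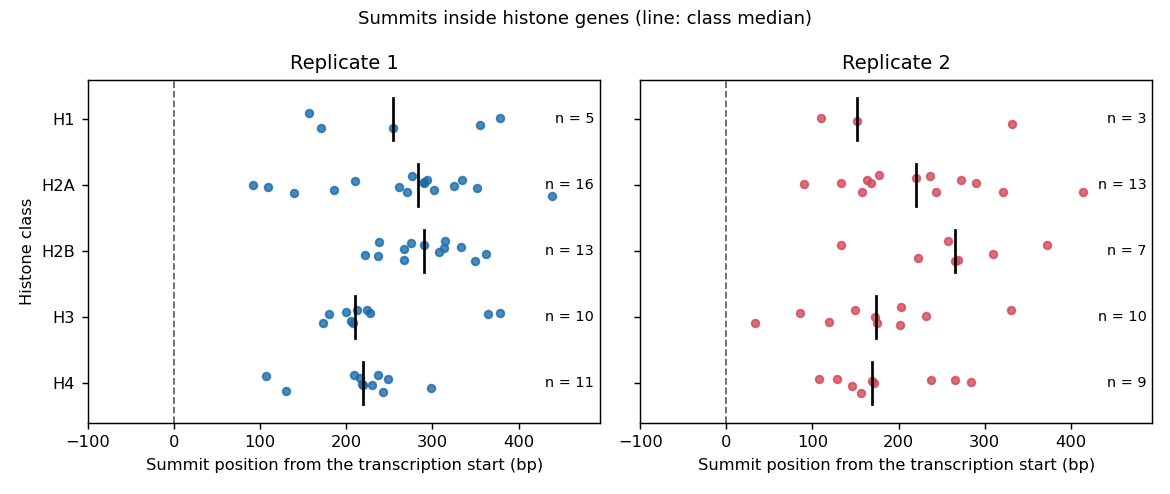
Position of the peak summit from the annotated transcription start in bp, for each histone gene with a summit inside it, by histone class, in replicate 1 (left) and replicate 2 (right). Points are genes, the vertical line is the class median, and the dashed line is the start. Only summits inside the gene and after a listed start are plotted. They span 92 to 439 bp in replicate 1 and 33 to 414 bp in replicate 2.

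A measure that does not require the summit to be inside the gene was the summit nearest to each start within 1 kb. It lay before the start in 6 of 57 members (10.5%) in replicate 1 and 11 of 50 (22%) in replicate 2, against 34.3% and 31.6% of other genes. Among other short genes 21.2% and 21.4% lay before it, so in replicate 2 the members' share was near that of short genes. By this measure 50 of 57 members (87.7%) in replicate 1 and 36 of 50 (72%) in replicate 2 had it more than 100 and up to 450 bp after the start. These limits were set after the positions had been seen. Among other genes with a listed start the shares were 38.3% of 12539 and 40.7% of 9364, and among other short genes 42.7% of 1056 and 44.3% of 411. A nearest summit within 100 bp of the start, on either side, was found in 1 of 57 members (1.75%) and 4 of 50 (8%), against 30.7% and 32% of other genes. The peaks lay wholly inside the gene for 42 of 59 members in replicate 1 and 35 of 46 in replicate 2 (71.2 and 76.1%), close to the 74.3 and 68.1% of other short genes with a summit inside.

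In the divergent H2A and H2B pairs, summits lay in the genes and none in the stretch between the starts. Members with listed starts formed 9 such pairs, with 164 to 281 bp between the starts. In replicate 1, all 9 pairs had a summit in each of their 2 genes and none between the starts. In replicate 2, 3 pairs had a summit in both genes, 5 in a single gene and 1 in neither, and again no summit lay between the starts. In 4 of the 5 single cases the peak was in the H2A gene.

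H2ac12 (Hist1h2ah, chromosome 13, positions 22035122 to 22035643) and H2bc12 (Hist1h2bk, 22035821 to 22036320) form the pair whose shared promoter is printed above. H2ac12 had fold enrichments of 14.8 and 9.31 in replicates 1 and 2, with 63 and 52 fragments over the summits. H2bc12 had 8.52 and 3.62, with 37 and 21 fragments. The summits lay 352 and 163 bp into H2ac12 and 308 and 372 bp into H2bc12, so both replicates had a separate peak on either side of the promoter. Fold enrichment is the deposited ratio of the summit pileup plus 1 to a background term of the same library.

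H2ac11 and H2bc11 had 10.4 and 9.0 in replicate 1 and 4.71 and 4.93 in replicate 2. In H2ac8 and H2bc8 the values were 8.43 and 6.21 in replicate 1 and 7.65 and 5.26 in replicate 2. In H2bc7 and H2ac7 the H2B gene had the lower value, 3.25 against 8.05 in replicate 1, and lacked a replicate 2 peak, while H2ac7 had 5.35. H2bc1 and H2ac1, the testis pair, had 12.4 and 19.7 in replicate 1, and their nearest replicate 2 peaks lay 57422 and 56665 bp away.

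Among H3 genes, which encode a core histone whose tail carries many regulatory marks, all 12 had a peak of their own in both replicates. H3c6 (Hist1h3e, positions 23561475 to 23562385) had fold enrichments of 27.5 and 9.03 with pileups of 128 and 45 fragments. Its peaks ran from 23561933 to 23562428 and from 23561943 to 23562412, so the lists placed it almost alike. H3c3 (Hist1h3c) had 25 and 6.60, with 153 and 35 fragments. H3c7 (Hist1h3f) had 12.8 and 8.25, with a stronger replicate 1 peak, that of H2bc9, also within 1 kb, and H3c1 (Hist1h3a) had 11.7 and 6.66. In HIST2, H3c13 had 25 and 7.29. The range over the 12 H3 genes was 10.4 to 27.5 in replicate 1 and 4.41 to 9.03 in replicate 2.

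H3c14 and H3c15 of HIST2 belong to a duplicated stretch in which H2ac18 and H2ac19 are the partners. H3c14 had 10.8 and 4.75 and H3c15 had 10.7 and 5.28, with summits 378 and 365 bp after the start in replicate 1 and 33 and 86 bp in replicate 2. The values of such near-identical copies are uncertain, because the same fragments can match both, and the labels and headers do not say how such fragments were treated. This holds for histone genes in general, whose coding parts are much alike, and its part in the results was not tested.

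H4 genes, which encode the same protein from many copies, had the largest median ratio of replicate 1 to replicate 2 fold enrichment of the 5 classes, at 3.36. By the share of genes with their own peak, H1 and H2B genes fell further between the lists, from 83.3 to 50% and from 87.5 to 56.25%, than H4 genes, from 100 to 75%. All 12 had their own peak in replicate 1, with a median fold enrichment of 16.5 (7.0 to 35.6), the highest class median there. In replicate 2, 9 of 12 had one, with a median of 4.28 (3.53 to 6.28), the lowest class median. H4c14 (Hist2h4, chromosome 3, positions 96262934 to 96263317) had 35.6 with 174 fragments in replicate 1, the highest value inside any of the 1204 short genes with a summit, and no site in replicate 2, whose nearest peak lay 5318 bp away. H4c4 (Hist1h4d) had 21.7 with 95 fragments and no replicate 2 site within 1 kb. H4c3 (Hist1h4c) had 24.9 and 3.93, and H4c12 (Hist1h4k) had 21.1 and 6.28. H4c1 (Hist1h4a) had 13.3 and 3.57, and its strongest replicate 2 peak within 1 kb was that of H3c1. H4c2 (Hist1h4b) had 7.0 in replicate 1 and no replicate 2 site. H4c14, H4c4 and H4c3 were thus among the strongest members in replicate 1 and absent or weak in replicate 2, while H4c12 had the highest H4 value of replicate 2.

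H2A genes had their own peak at 16 of 17 members in replicate 1 and 13 in replicate 2, with medians of 9.53 (7.13 to 19.7) and 5.35 (3.72 to 9.31). H2ac20 and H2ac21 of HIST2 had 18.2 and 9.55 in replicate 1 and 4.61 and 4.8 in replicate 2. H2ac19 had 7.63 in replicate 1 alone, and H2ac18 had no summit inside in either list, its sites lying upstream or in H3c14. H2B genes had their own peak at 14 of 16 members in replicate 1 and 9 in replicate 2, with medians of 8.76 (3.25 to 28.4) and 4.52 (3.62 to 5.50). H2bc9 (Hist1h2bh) had the highest H2B value, 28.4 with 180 fragments, and 4.91 with 24 fragments in replicate 2. It was picked after its values were seen. H2bc18 had no summit inside in either list and counts as having a site through the peaks in H3c13. H2bc21 had 3.89 in replicate 2 alone.

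H2bc6 (Hist1h2be) shows how the annotation enters the count. Its record spans 37455 bp because a long transcript variant is included. The strongest peaks within 1 kb of its outer ends were those of H1f4, at 21.9 and 6.09. Replicate 1 listed 2 peaks in these windows and replicate 2 listed 1. A second listed start of H2bc6 lies near the other end of the record. The gene's own peaks lay 267 and 223 bp after that start, with fold enrichments of 13.7 and 3.73.

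Linker histone H1 genes, whose products bind DNA between nucleosomes, had a site in both replicates in 3 of 6 cases. This was 50%, against 62.2% of all genes. H1f4 (Hist1h1e) had fold enrichments of 21.9 and 6.09, with 82 and 30 fragments. The other 2, H1f2 and H1f3, had 7.14 and 6.72 in replicate 1 and 6.18 and 4.91 in replicate 2. H1f5 (Hist1h1b) had 7.71 in replicate 1 and no replicate 2 site. H1f6 (Hist1h1t), the testis H1, had 8.35 in replicate 1 and no replicate 2 site. H1f1 (Hist1h1a, positions 23763668 to 23764412) was the member with no site in either replicate, and the nearest peaks of both lists, 1355 and 1318 bp away, were those of H3c1.

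The 8 members without a site in both replicates were thus H1f1, H1f5, H1f6, H2ac1, H2bc1, H4c2, H4c4 and H4c14, and 7 of them had a replicate 1 site. Their replicate 1 values ran from 7.0 at H4c2 to 35.6 at H4c14, which overlaps the range of the members found in both. No listed peak had a pileup under 10 fragments (replicate 1) or 13 (replicate 2), so a weaker replicate 2 signal at these genes was not detectable. All 3 testis members by common knowledge (H1f6, H2ac1 and H2bc1) were among the 8.

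**Figure D3:**
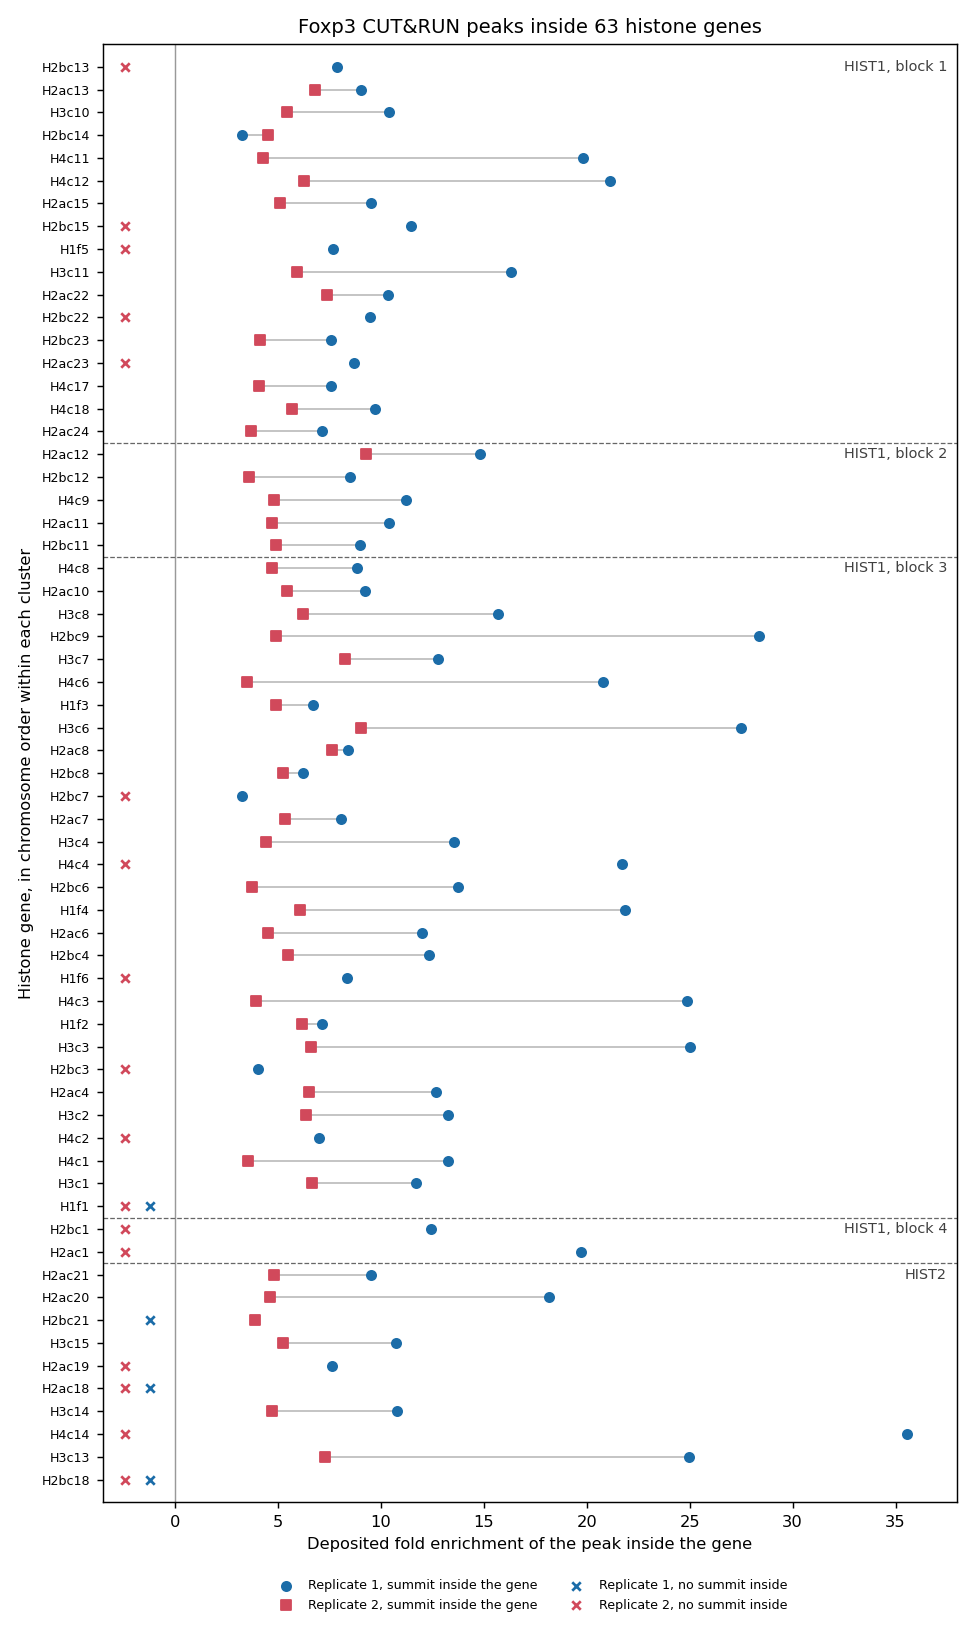
Deposited fold enrichment of the peak whose summit lies inside each of the 63 histone genes, in chromosome order within each cluster, in replicate 1 (circles) and replicate 2 (squares). Crosses left of 0 mark genes with no such peak, and dashed lines separate the blocks. Replicate 1 exceeds replicate 2 at 44 of the 45 genes that have both, the exception being H2bc14.

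Peaks inside members had higher medians than the strongest peaks inside other short genes, by more in replicate 1 than in replicate 2. The median fold enrichment of own peaks was 10.75 in replicate 1 and 5.18 in replicate 2, against 7.01 and 4.75 inside other short genes, and 8.29 and 4.88 where receptor genes were set aside. By the strongest peak within 1 kb, the members' medians were 12.3 and 5.50, against 10.05 and 5.36 over all genes with a site. Inside all protein-coding genes, most of them longer, the strongest peaks had medians of 11.5 and 5.30, above those of the members' own peaks. The median pileup of own peaks was 75 and 32 fragments, against 33 and 30 inside other short genes, and 51 and 30 without receptor genes. Inside all protein-coding genes it was 62 and 32. These differences were not tested.

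The background term, by which the pileup is divided, was above its genome-wide value at most members. The term, computed as the pileup plus 1 over the fold enrichment, had a genome-wide value of 3.78 in replicate 1 and 5.09 in replicate 2. Any constant added to the background in the deposited ratio is part of this term, so it is not a plain fragment count. At the members' own peaks it was over 5% above that value in 56 of 59 cases in replicate 1 (94.9%, median 6.44) and 33 of 46 in replicate 2 (71.7%, median 6.18). Inside other short genes it was raised at 48.4% and 60.3% of peaks, and at 67.7% and 64.4% without receptor genes. H2ac19, with 87 fragments, had a term of 11.5 and a fold of 7.63, while H4c3, with 93 fragments, had a term of 3.78 and a fold of 24.9.

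The order of the classes therefore depends on the measure. By fold enrichment, the replicate 1 order was H4, H3, H2A, H2B and H1, at 16.5, 13.4, 9.53, 8.76 and 7.71. By summit pileup it was H3, H4, H2A, H2B and H1, at 120.5, 92, 69, 56 and 35 fragments. In replicate 2 the order by fold was H3, H1, H2A, H2B and H4, at 6.29, 6.09, 5.35, 4.52 and 4.28, and by pileup H3, H2A, H1, H4 and H2B, at 40.5, 37, 30, 29 and 26 fragments. H3 genes came before H2A and H2B genes in all 4 orders, and the ranges of neighbouring classes overlapped.

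**Figure D4:**
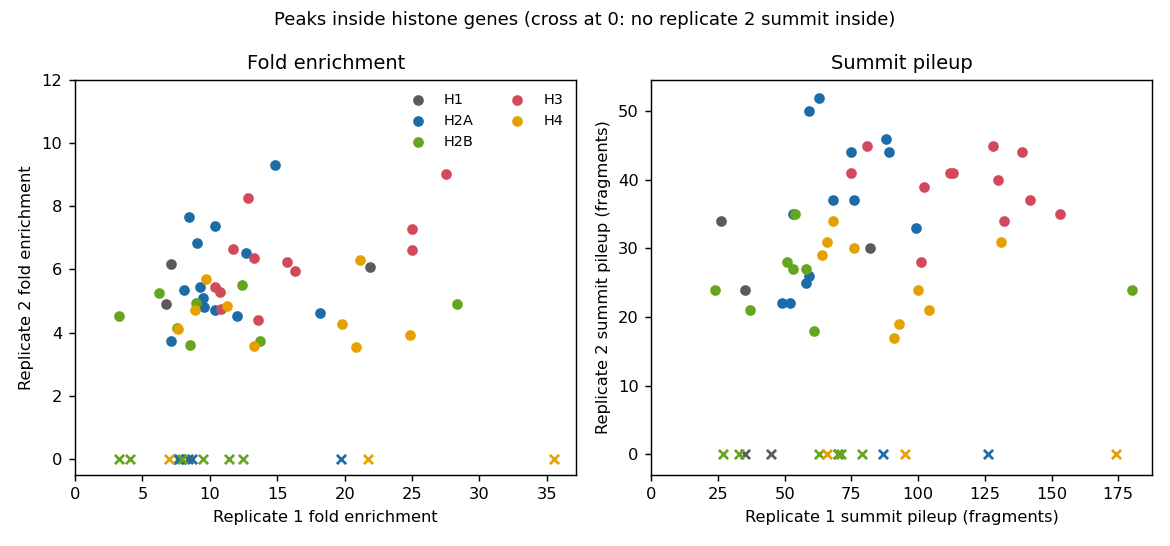
Fold enrichment (left) and summit pileup in fragments (right) of the peaks inside histone genes, replicate 1 on the x axis and replicate 2 on the y axis, coloured by class. Crosses at 0 are genes with a replicate 1 peak only. Several H4 genes lie far right at low replicate 2 values, and most H3 genes lie high on both pileup axes.

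The replicates ranked the members differently. Across the 45 members with their own peak in both lists, Spearman's rho was 0.19 for fold enrichment and 0.31 for pileup. Across 411 other short genes with a summit inside in both, taking the strongest such peak, it was 0.44 and 0.40. By the strongest peak within 1 kb of a gene end, rho for fold enrichment was 0.11 across 55 members and 0.46 across all 13463 genes with a site in both. Points in such a comparison share their libraries, and neighbours share a background term. By the strongest peak within 1 kb, some of the 55 points also repeat the same peaks, as at H2ac12 and H2bc12. At others, such as H4c1, the strongest peaks of the 2 lists lay in different genes. The ratio of replicate 1 to replicate 2 fold enrichment had a median of 2.04 over the 45 members, 3.36 over 9 H4 genes, 2.40 over 12 H3 genes and 1.86 over 13 H2A genes, against 2.16 over the other short genes.

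Genes between the histone genes of HIST1 served as a local reference, and the list held none in HIST2. Of 36 vomeronasal receptor genes, which function in pheromone sensing, 10 had a site in replicate 1, 2 in replicate 2 and none in both. Of 14 other genes there, 11 had a site in replicate 1 (78.6%) and 5 in both (35.7%). Over all protein-coding genes these shares were 86.1% and 62.2%. From here on, values are those of the strongest peak within 1 kb of a gene end, unless said to lie inside the gene. Zfp184, a zinc finger gene, had 15.8 and 7.26, and Hfe, the haemochromatosis gene, had 3.71 and 3.34. These 2 were picked after their values were seen. The Hfe peaks of the 2 lists lay outside the gene, past the end opposite its start, and did not overlap. The 4 histone genes left out by their symbols were H2aw and H2bu2 of HIST3, H4f16 of HIST4 and H4bc24 of HIST1. H2aw, H4f16 and H4bc24 had sites in both, at 7.08 and 5.10, 6.12 and 3.85, and 8.50 and 5.37, and H2bu2 had 27.6 in replicate 1 alone. The replicate 1 summit of 7.08 lay before the start of H2aw, and the peak inside H2aw had 6.18.

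Replication-independent histone genes, some of whose products replace the canonical histones outside S phase, had a site in both replicates in 11 of 16 cases. This share of 68.8% was near the 62.2% of all genes. H2az2, for an H2A.Z protein, had 11.4 and 9.73, Macroh2a1 had 21.1 and 6.55, and H2aj had 11.8 and 6.35. The 5 without were Hils1, H2al2a, H1f8, H3f3c and H3f3b. H3f3b, a gene for the replacement histone H3.3, had no peak within 1 kb of its outer ends, but peaks with fold enrichments of 9.72 and 5.86 lay inside it after a listed start.

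Genes that make and process histone messages had a site in both replicates in 29 of 30 cases (96.7%, against 62.2% of all genes). Casp8ap2, whose product FLASH belongs to the histone locus body, had 27.6 and 8.44, Npat had 18.4 and 8.69 and the cleavage factor gene Cstf2 had 16 and 10.2. Slbp, for the protein that binds the stem-loop of histone messages, had 10.8 and 4.78. Coil, for coilin, lacked a replicate 2 peak near its ends and had one of 5.71 inside. Histone chaperone genes had a site in both in 20 of 21 cases (95.2%), led by Rbbp4 (16.6 and 9.32), Nap1l4 (21.5 and 7.83) and Ubn1 (20.8 and 7.81), and Nasp lacked a replicate 2 peak near its ends but had one of 9.54 inside.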

How the data were processed

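Foxp3 CUT&RUN peak lists of 2 BMDM libraries were analysed. Per the file headers, the authors called peaks with MACS 2.1.1.20160309 on each library separately, in paired-end mode, at a q-value cutoff of 0.01, with no control library and all duplicates kept. The submitters' processing notes name CASAVA 1.4 and mm10, and no source used here names an aligner. Pileup was deposited as a signal in fragments at the summit, without scaling between libraries. The deposited fold enrichment is a ratio to a background term of the same library, set genome-wide or over 10000 bp. Significance was deposited as −log10 of p-values and q-values. Lengths and summits are in bp.

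Genes came from the RefSeq table of GRCm38.p6, whose coordinates are those of mm10, and starts and strands from the RefSeq promoter table. A site was a peak overlapping 1000 bp on either side of a gene end. Members, lists, settings and the rule for named genes (the 10 highest HIST1 members and class leaders by mean percentile of fold, all HIST2, HIST3 and HIST4 genes, members lacking a site in both, and 3 leaders and the exceptions of each other list, Npat and Slbp always) were chosen with earlier results of these data known. The own-peak measure, the AAACACA word and the pileup ranking were added, and the pair genes, H1f2, H1f3, H2bc9, H2bc14 and H4c3 named, after the values were seen. Site calling was tested on simulated data (200 of 200 sites recovered among 2000 genes, with 0 false). Python 3.11.15, pandas 2.3.3 and scipy 1.17.1 were used. Alternatives were other windows, overlap rules, stricter peaks, equal peak numbers and each replicate alone.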

Additional observations from a re-analysis of the deposited data

How the results depend on the processing

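The count of members with a site in both replicates lay between 52 and 60 of 63 (82.5 to 95.2%) over the alternatives other than a single replicate and the gene body alone. Over the same alternatives the share of all genes ran from 43.7% (50% overlap) to 78.9% (windows of 5000 bp). The gene body alone gave 47 of 63 (74.6%) against 75.1% of all genes. With the strongest replicate 1 peaks in the number that replicate 2 holds, the members' count was 52 by fold (82.5%) and 53 by −log10 q (84.1%), against 49.3% and 54% of all genes. Without replicate 1 it was 55 (87.3%) and without replicate 2 it was 62 (98.4%), against 63.3% and 86.1% of all genes. Leaving out a replicate gave 46 to 52 in HIST1, 9 to 10 in HIST2, 11 to 14 replication-independent histone genes, 29 to 30 processing genes, 20 to 21 chaperone genes and 7 to 21 neighbouring genes. The replication-independent histone genes (68.8% and 87.5%) were near the shares of all genes, 63.3% without replicate 1 and 86.1% without replicate 2. The neighbouring genes moved most from their count of 5, to 14 with windows of 5000 bp, 8 with gene bodies, and 3 with 50% overlap or with the strongest replicate 1 peaks by either ranking. With the nearest peak in place of the strongest, the mean fold of 17 of 19 named members changed by less than the standard deviation of the replicates, and H2bc12 and H4c1 moved further. That limit is wide, because the 2 lists differ in their values, so it does not show that the values held. H1f4 went from 14.0 to 7.52 and H3c7 from 18.3 to 10.5 within it, while H3c6 stayed at 18.3. No paired analysis was possible because the Foxp3 libraries form 1 group. No listed peak of replicate 2 had a pileup under 13 fragments, so weaker signal cannot be seen there.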
